A study of Homo sapiens with 32 samples.

Results

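Transcripts of 49 genes that drive DNA replication and mitosis were followed in HGrC1 cells. This immortalized line stems from human granulosa cells that had not luteinized. The genes were picked by name: those whose symbol was on a fixed list of replication, cyclin, kinase, spindle and related genes, 49 of 47137 gene entries. All 49 had values, and all passed edgeR's filter on low counts in every fit. Each of 4 vials of cells, cryopreserved separately, was expanded in its own flask, which was then split into a culture with vehicle only (0.05% DMSO), the control, and cultures with 0.01, 0.1 or 1 µM of perfluorooctane sulfonic acid (PFOS), added again at each passage. RNA was taken after 6 and 12 weeks, which gave 8 groups of 4 libraries, 32 in all. The sample labels name estradiol as the hormone in the medium of all groups, including the controls, whereas the study's methods name testosterone. All groups came from 1 cell line, so the values describe that line, and time in culture cannot be told apart from passage number and harvest.

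Cell cycle genes are switched on in waves. Genes for replication, such as those of the MCM helicase that unwinds DNA at origins, are transcribed around the start of S phase under E2F transcription factors. Genes for mitosis, such as the cyclin B genes and the spindle checkpoint genes, follow in G2 under the MYB-MuvB complex and FOXM1. These act through a promoter element called the cell cycle genes homology region (CHR), often near CCAAT boxes that bind NF-Y. Resting cells keep both waves low. In bulk RNA, fewer cycling cells and less RNA per cycling cell cannot be told apart. In the ovary, proliferation of granulosa cells is what makes a follicle grow.

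The bases just before the start sites of 4 genes are shown because these genes carry the results below: CDC20 and MCM6 rose with time in every culture set, KIF11 was the gene called with PFOS, and CCNE1 was called lower at 12 weeks in 3 of the 4 sets. Each stretch is the 200 bases upstream of the RefSeq gene start on GRCh38.p14, written 5′ to 3′ on the strand of the gene, and capitals mark CHR, CCAAT and E2F matches. The stretches lie at chr1:43358781-43358980 (plus strand, before CDC20 at 43358981 to 43363203), chr10:92592930-92593129 (plus strand, before KIF11 at 92593130 to 92655395), chr2:135876444-135876643 (minus strand, before MCM6 at 135839626 to 135876443) and chr19:29811791-29811990 (plus strand, before CCNE1 at 29811991 to 29824312).
CDC20: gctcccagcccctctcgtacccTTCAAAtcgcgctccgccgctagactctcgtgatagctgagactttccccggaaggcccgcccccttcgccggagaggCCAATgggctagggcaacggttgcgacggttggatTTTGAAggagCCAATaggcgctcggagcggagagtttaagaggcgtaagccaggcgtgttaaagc
KIF11: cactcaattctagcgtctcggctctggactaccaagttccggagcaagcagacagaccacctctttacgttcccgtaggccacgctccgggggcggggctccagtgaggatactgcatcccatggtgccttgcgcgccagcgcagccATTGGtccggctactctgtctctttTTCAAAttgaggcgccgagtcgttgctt
MCM6: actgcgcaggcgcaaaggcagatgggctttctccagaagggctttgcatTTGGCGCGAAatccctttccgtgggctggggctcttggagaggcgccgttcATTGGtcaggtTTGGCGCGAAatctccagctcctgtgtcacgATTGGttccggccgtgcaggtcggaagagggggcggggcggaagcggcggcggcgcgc
CCNE1: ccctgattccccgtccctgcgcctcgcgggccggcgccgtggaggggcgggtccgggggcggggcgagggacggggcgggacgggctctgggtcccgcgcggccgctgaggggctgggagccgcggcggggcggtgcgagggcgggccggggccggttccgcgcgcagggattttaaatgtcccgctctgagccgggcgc

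CDC20 had a CHR (TTTGAA) 65 bases before its start with CCAAT boxes on either side of it, and KIF11 had a CHR on the other strand, written TTCAAA, 28 bases before its start and a CCAAT box, written ATTGG, 53 bases before it. MCM6 had the E2F element TTGGCGC at 151 and at 89 bases before its start, each overlapping the second E2F match TTCGCGC on the other strand, and CCAAT boxes at 100 and 58 bases, and its CHR match began 246 bases before the start, outside the stretch shown. CCNE1, which encodes cyclin E1, had no match to these letters. Windows from 250 bases before to 50 after the start were found in the RefSeq table for 39 of the 49 genes. The other 10 were AURKA, BIRC5, CCNE2, CDK2, FOXM1, MCM4, MCM5, TPX2, TTK and UBE2C. Both strands were searched for a CHR, spelled TTTGAA in one form and TTCGAA in the other, and for CCAAT. The first E2F element searched was TTGGCGC, as in MCM6. The next E2F element was TTCCCGC, with a run of cytosines in the middle. A further E2F element was TTCGCGC, which can overlap TTGGCGC on the opposite strand as it did in MCM6. The last E2F element searched was TTGCCGC. A CHR was present in 19 of the 39 windows (48.7%), against 16.6% of all 27305 promoters of that length and 11.2% of the 10544 promoters of tested genes. CCAAT was present in 30 (76.9%, against 35.7% and 36.5%) and an E2F element in 18 (46.2%, against 13.1% and 21.0%). A CHR together with CCAAT was present in 18 (46.2%, against 6.58% and 4.63%). The elements followed the roles of the genes only in part. A CHR was found for 7 of 9 centromere, kinesin and spindle genes and for 4 of 4 spindle checkpoint genes, but for 1 of 8 origin licensing and helicase genes, all 8 of which had an E2F element. An E2F element was also found for 3 of the 9 spindle genes. Of 5 cyclin and kinase genes, 2 had a CHR and 2 an E2F element. The cyclin B gene CCNB1 had an E2F element and no CHR. KIF20A and AURKB also had no CHR, whereas RRM1 had a CHR. These matches describe the letters only.

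Total counts per library lay between 17907057 and 18553350 (median 18161005.5), and mitochondrial transcripts took 3.54 to 6.77% of them. The granulosa markers were partly absent. CYP19A1, which encodes aromatase, was at 0 in 31 of 32 libraries, AMHR2 was at 0 in 19 and NR5A1 was at 0 in 5. FSHR had no value. AMH was at a median of 13.5 TPM, HSD17B1 at 5.6, INHA at 1.525 and FOXL2 at 0.635 TPM, each above 0 in all 32 libraries. Of 6 liver markers (ALB, AFP, APOB, AHSG, GPC3 and AMBP), the summed count was 0 to 1 at 6 weeks in the 4 control and 4 0.01 µM libraries. It was 919 in vial 3 of the 12-week control and 72 to 174 in the other 23 libraries. Libraries of the control and 1 µM groups also stood apart from each other at 12 weeks, as given with the summed expression below.

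In TPM, which corrects for transcript length and so allows levels of different genes to be compared, mean levels lay between 4.23 TPM (CCNE1) and 513 TPM (PCNA). PCNA, the sliding clamp that holds polymerases on DNA, ranged from 449 to 585 TPM over the 32 libraries. UBE2C, the ubiquitin-conjugating enzyme of the anaphase-promoting complex, was at 438 TPM and its activator CDC20 at 375. Among nucleotide supply genes, thymidine kinase TK1 was at 396 TPM, thymidylate synthase TYMS at 308 and RRM2, the small subunit of ribonucleotide reductase, at 239. The helicase subunit MCM7 was at 347 TPM, MCM3 at 142 and MCM2 at 126. The B cyclins CCNB1 (274 TPM) and CCNB2 (173), which bring CDK1 (138) to mitosis, far exceeded the E cyclins CCNE2 (13.4) and CCNE1 (4.23), which work with CDK2 (77.8) at the entry into S phase. The transcription factors MYBL2 and FOXM1 were at 291 and 122 TPM. The mitotic kinases PLK1 and AURKA were at 164 and 148, the spindle proteins NUSAP1 and KIF20A at 227 and 161, and TOP2A, which untangles sister chromatids, and MKI67, the Ki-67 antigen, at 143 and 70.6. From the lowest to the highest library, expression differed by 1.13-fold (AURKA) to 2.15-fold (CCNE1).

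The first question was whether PFOS changed these genes against the vehicle control of the same time. It was tested with edgeR's quasi-likelihood test on the 16 libraries of a time, with Benjamini-Hochberg adjustment over 12836 genes at 6 weeks and 12742 at 12 weeks, and a gene was called at an adjusted p of 0.05 or less. The 3 concentrations of a time share their 4 controls. Of 294 values (49 genes in 6 comparisons), 1 was called, KIF11 at 0.1 µM after 6 weeks. All 294 log2 fold changes lay between -0.37 and 0.23, the largest being 1.29-fold in size, with a median standard error (SE) over the 49 genes of 0.035 at 6 weeks and 0.061 at 12 weeks. An unadjusted p under 0.05 was reached by 37 of the 294.

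After 6 weeks at 0.01 µM, 0 of the 49 genes were called, as were 0% of all tested genes, and 5 had an unadjusted p under 0.05 (9.6% of all genes). The groups did not overlap for 3 genes (3.85% of all genes): AURKB, the kinase of the chromosomal passenger complex, and KIF11 were higher and CDK2 was lower. AURKB had the lowest p, with a log2 fold change of 0.09 (SE 0.034, edgeR adjusted p = 0.462), followed by KIF11 (0.07, edgeR adjusted p = 0.484) and MKI67 (0.07, edgeR adjusted p = 0.504). At 0.1 µM, 1 gene was called (4.24% of all genes) and 7 had an unadjusted p under 0.05 (20.8%). The groups did not overlap for 4 genes (12.3%), all higher: KIF11, AURKB, the kinetochore motor CENPE and the spindle protein HMMR. The log2 fold change was 0.12 for CENPE (SE 0.040, edgeR adjusted p = 0.0798), 0.12 for HMMR (edgeR adjusted p = 0.124) and -0.11 for MYBL2 (edgeR adjusted p = 0.0998). At 1 µM, 0 genes were called (0.28% of all genes), 5 had an unadjusted p under 0.05 (13.7%) and only KIF11 did not overlap (6.78%). E2F1 was at a log2 fold change of -0.09 (edgeR adjusted p = 0.269) and the helicase subunit MCM5 at -0.07 (edgeR adjusted p = 0.338).

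KIF11 encodes kinesin-5, the motor that slides spindle microtubules apart to form the 2 poles. In CPM, which are counts scaled to library size by TMM, it was at 140.5, 145, 142 and 138 in the 6-week controls (vials 1 to 4) and at 154, 153, 151 and 153 with 0.1 µM PFOS. With 0.01 µM it was at 147, 152, 149 and 145, and with 1 µM at 152, 146, 154 and 149.7. All 12 exposed libraries were above all 4 controls, although at 0.01 µM the lowest exposed library and the highest control lay within 1 CPM of each other. At 0.1 µM the mean rose from 141 ± 2.91 CPM (SD, n = 4) to 153 ± 1.43 CPM (SD, n = 4), a log2 fold change of 0.11 (SE 0.030, edgeR adjusted p = 0.0403). At 1 µM the log2 fold change was 0.09 (SE 0.030, edgeR adjusted p = 0.185). The call at 0.1 µM was lost when only the 8 libraries being compared were fitted (0.0553), with no filter (0.0574), with all 32 libraries in 1 fit (0.178) and when any 1 vial was left out (vial 1, 0.153; vial 2, 0.0517; vial 3, 0.157; vial 4, 0.197), and over all alternatives the edgeR or DESeq2 adjusted p was 0.0158 to 0.197. The summed liver marker count was also 89 to 141 at 0.1 µM and 88 to 115 at 1 µM after 6 weeks, against 0 to 1 in the control and 0.01 µM libraries, and ALB, AFP, APOB and AHSG were called higher at both concentrations. The mitochondrial share was 5.52 to 6.71% at 0.1 µM and 4.80 to 5.04% in the control. The part of either in the KIF11 result was not tested. After 12 weeks the KIF11 groups overlapped at 0.1 µM (193, 189, 198 and 178 CPM against 176, 179, 160.3 and 158 in the controls), with a log2 fold change of 0.17 (SE 0.051, edgeR adjusted p = 0.119).

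After 12 weeks, 0 of the 49 genes were called at 0.01 µM (0% of all genes), at 0.1 µM (1.07%) and at 1 µM (0.22%). An unadjusted p under 0.05 was reached by 9 genes at 0.01 µM (8.48% of all genes), 9 at 0.1 µM (15.4%) and 2 at 1 µM (8.75%). At 0.01 µM the groups overlapped for all 49 genes (2.8% of all genes did not overlap), and the lowest p was that of GINS2, a subunit of the GINS complex of the replicative helicase, with a log2 fold change of 0.23 (SE 0.074, edgeR adjusted p = 0.565). The centromere histone CENPA followed at 0.20 and the checkpoint kinase BUB1 at 0.16, both with an edgeR adjusted p of 0.565 or 0.566. At 0.1 µM the groups did not overlap for 5 genes (8.52%), with CENPA, FOXM1 and MCM3 higher and PCNA and RRM1 lower. RRM1, the large subunit of ribonucleotide reductase, was at 215, 221, 236 and 252 CPM in the controls and at 210.2, 209.9, 203 and 207 with PFOS. Its log2 fold change was -0.16 (SE 0.055, edgeR adjusted p = 0.183). MCM3 was at 255, 250.4, 253 and 248 CPM in the controls and at 274, 268, 273 and 273 with PFOS, a log2 fold change of 0.11 (SE 0.040, edgeR adjusted p = 0.207). DESeq2 called KIF11 and MCM3 in this comparison, and edgeR on all 32 libraries called KIF11 and RRM1. The value farthest from 0 in any PFOS comparison was that of CCNE2, cyclin E2, at 0.1 µM. It was at 19.2, 16.9, 22.8 and 26.6 CPM in the controls and at 16.8, 16.3, 16.6 and 17.0 with PFOS, a log2 fold change of -0.37 (SE 0.13, edgeR adjusted p = 0.211). At 1 µM only PCNA did not overlap (6.54%), lower at a log2 fold change of -0.10 (edgeR adjusted p = 0.548), and the lowest p was that of BRCA1, a DNA repair gene, at 0.10 (edgeR adjusted p = 0.520), with UBE2C at -0.12 (edgeR adjusted p = 0.573).

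**Figure D1:**
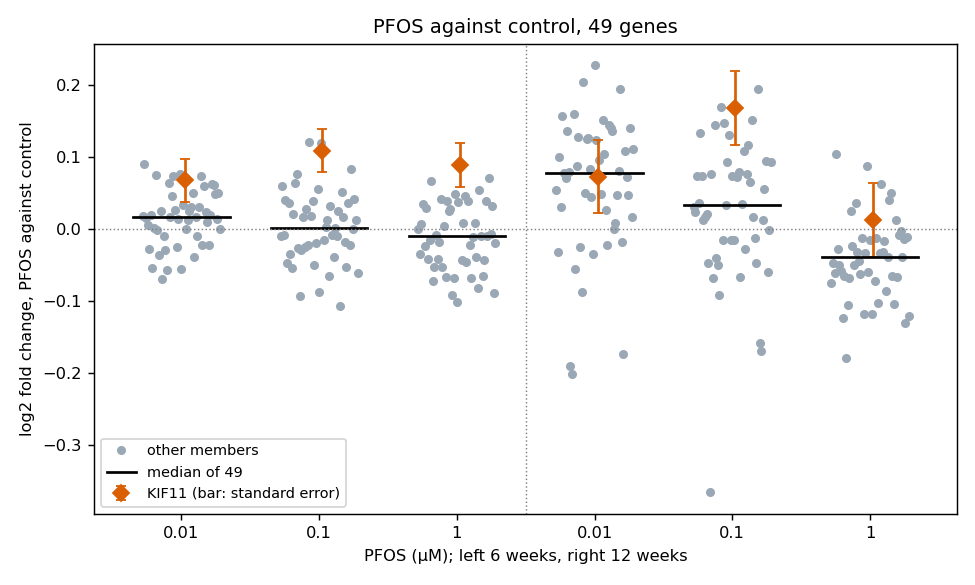
Log2 fold change against the control of the same time (vertical axis) for each of the 49 genes (points) at each PFOS concentration in µM (horizontal axis), 6 weeks on the left and 12 weeks on the right. Lines are medians and the diamond is KIF11 with its standard error. The values lie between -0.37 and 0.23 throughout, with medians between -0.04 and 0.08, and only KIF11 at 0.1 µM after 6 weeks was called.

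The medians over the 49 genes lay between -0.039 and 0.078. At 6 weeks they were 0.017, 0.0018 and -0.0098 at 0.01, 0.1 and 1 µM, beside 0.0021, 0.00042 and -0.0011 over all genes. At 12 weeks they were 0.078, 0.034 and -0.039, beside 0.0023, -0.0047 and -0.0041. At 0.01 µM after 12 weeks 39 of the 49 values were above 0 (51.1% of all genes), and at 1 µM 40 were below 0 (51.7%). The 12-week medians moved when 1 vial was left out, from 0.044 to 0.13 at 0.01 µM, 0.014 to 0.069 at 0.1 µM and -0.083 to 0.0044 at 1 µM. Without the control library of vial 3 alone they were 0.054, 0.020 and -0.065.

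The second question was how the genes differed between 6 and 12 weeks in each set of cultures, tested on all 32 libraries and 12988 genes. Many replication and mitosis genes were higher at 12 weeks, among them CDC20, MCM6 and PCNA, in the unexposed controls and at each PFOS concentration, while CDK2, RRM2 and CCNE1 were called lower in 2 or 3 of the sets. In the controls 28 of the 49 genes were called (36.6% of all genes), 27 higher (17.3%) and 1 lower (19.3%). At 0.01 µM 36 were called (42.7%), 33 higher (21.4%) and 3 lower (21.3%). At 0.1 µM 37 were called (40.3%), 33 higher (19.7%) and 4 lower (20.6%). At 1 µM 24 were called (30.1%), 23 higher (14.2%) and 1 lower (15.9%). The median log2 fold change of the 49 genes was 0.14, 0.22, 0.15 and 0.11 in the same order, beside 0.0040, 0.010, 0.0085 and 0.0051 over all genes, and 0 of the 49 genes were called with a 2-fold change in any set (3.32%, 3.49%, 3.83% and 3.09% of all genes). The groups of 4 libraries did not overlap for 21 genes in the controls (31.3% of all genes), 34 at 0.01 µM (33.2%), 39 at 0.1 µM (39.7%) and 17 at 1 µM (30.4%). Without vial 2, 18 genes were called in the controls, and without the control library of vial 3 at 12 weeks, 32. At 1 µM, 6 genes were called without vial 3 and 10 without vial 4. The liver marker count moved with time in the controls and at 0.01 µM, from 0 to 1 at 6 weeks to at least 72 at 12 weeks, and their part in the result was not tested. At 0.1 and 1 µM, 0 of the 4 liver markers tested were called between the times. Of 6 markers of other cell types 4 were tested, of which 1, 2, 3 and 3 were called lower in the order control, 0.01, 0.1 and 1 µM and 0 higher, with median log2 fold changes of -0.36, -0.55, -0.76 and -0.72. PECAM1, an endothelial and leukocyte gene at 0 to 25 counts per library, fell in all 4 sets, with log2 fold changes of -2.65, -2.10, -3.15 and -3.15. The macrophage marker CD68 was at -0.48, -0.63 and -0.46 in the 3 PFOS sets. The endothelial marker VWF, at 4 to 16 counts per library, was at -0.89 and -0.98 at 0.1 and 1 µM. The epithelial marker EPCAM, at 9 to 29 counts, was also tested and was not called in any set. Of the 4 tested, 1 was above 0 in the control, 1 at 1 µM and 0 at 0.01 and 0.1 µM. CYP17A1 and PTPRC reached at most 1 and 8 counts per library. Of 8 granulosa markers 4 were tested, of which 1 was called lower at 0.01 µM and 1 higher at 1 µM. In the control and at 0.1 µM 0 of these 4 were called. Their median log2 fold changes were -0.10, 0.025, 0.17 and -0.070 in the order control, 0.01, 0.1 and 1 µM. The part of these markers in the result was not tested.

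**Figure D2:**
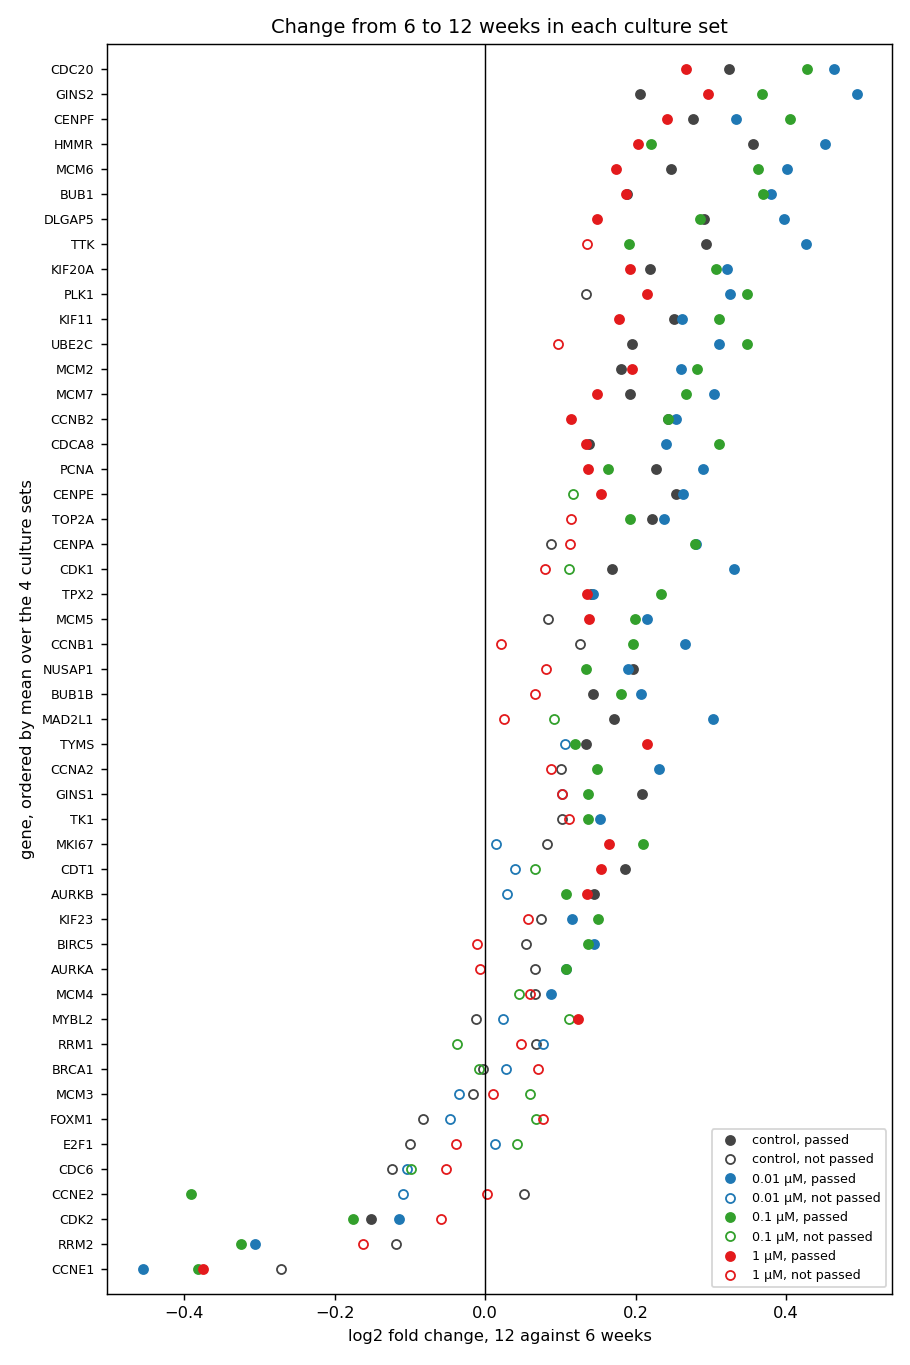
Log2 fold change from 6 to 12 weeks (horizontal axis) of each of the 49 genes (vertical axis), with a point for the control and for each PFOS concentration. Filled points passed at an adjusted p of 0.05 or less and open points did not. CDC20, at the top, lies between 0.27 and 0.46, most genes lie to the right of 0 in all 4 sets, and CCNE1, RRM2, CDK2 and CDC6 lie to the left in all 4.

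The 15 genes called higher in all 4 sets (30.6% of the 49, and 6.68% of all genes tested) were CDC20, GINS2, CENPF, HMMR, MCM6, BUB1, DLGAP5, KIF20A, KIF11, MCM2, MCM7, CCNB2, CDCA8, PCNA and TPX2. Leaving out 1 vial changed these calls, and 10 of the 15 were called higher in all 4 sets without vial 1, 8 without vial 2, 4 without vial 3 (HMMR, KIF11, MCM2 and GINS2) and 6 without vial 4. In the controls, 10 of the 15 were called higher without vial 1 and 10 without vial 2. CDCA8, KIF20A, MCM2 and TPX2 were lost there both times, BUB1 without vial 1 and GINS2 without vial 2. Other losses without these vials were CDCA8, CCNB2 and HMMR at 1 µM and TPX2 at 0.01 µM. The calls lost without vial 3 were all at 1 µM, CDC20, MCM6 and PCNA among them, and those lost without vial 4, MCM6 and PCNA included, were also all at 1 µM. A further 10 genes were called higher in 3 sets (6.08% of all genes), 12 in 2 (8.03%), 2 in 1 (11.6%) and 10 in 0 (67.6%). The log2 fold change was above 0 in all 4 sets for 36 of the 49 (73.5%, against 31.8% of all genes). Of the 49, 0 were called lower in all 4 sets (9.87% of all genes), and 4 were called lower in at least 1 (30.8% of all genes): CCNE1, CDK2, RRM2 and CCNE2. RRM1, BRCA1, MCM3, FOXM1, E2F1 and CDC6 were called in 0 sets.

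For each role, the median below is taken over its genes' log2 fold changes averaged over the 4 sets, and counts of genes called higher in at least 1 set stand beside 32.4% of all genes. All 6 spindle checkpoint and anaphase genes were called higher in at least 1 set, with a median of 0.25. Within single sets their median was 0.19, 0.35, 0.27 and 0.12 in the order control, 0.01, 0.1 and 1 µM, beside 0.24, 0.27, 0.26 and 0.15 for the centromere, kinesin and spindle genes. CDC20, which activates the anaphase-promoting complex, was at 300.2, 292, 294 and 312 CPM in the 6-week controls and at 422, 398, 346 and 335 in the 12-week controls. With 0.01 µM it went from 293, 296, 311 and 319 to 409.5, 433, 438 and 399.9, and with 1 µM from 297, 293, 297 and 305 to 317, 314, 393 and 409.6. The 2 times did not overlap in any of these sets, but the 12-week values of the controls and of 1 µM were spread over a wider range. The log2 fold changes were 0.32, 0.46, 0.43 and 0.27 for the control, 0.01, 0.1 and 1 µM (SE 0.065, edgeR adjusted p = 0.000205, 8.49e-07, 3.5e-06 and 0.00205). BUB1 rose by 0.19, 0.38, 0.37 and 0.19 on the log2 scale. BUB1B rose by 0.14, 0.21 and 0.18 in the control, at 0.01 and at 0.1 µM, and at 1 µM it was at 0.07 and not called. UBE2C rose in the control (0.19), at 0.01 µM (0.31) and at 0.1 µM (0.35), and at 1 µM it was at 0.10 (edgeR adjusted p = 0.161). The checkpoint kinase TTK and MAD2L1, which holds CDC20 inactive until chromosomes attach, were likewise called in 3 and 2 sets and not at 1 µM.

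All 10 centromere, kinesin and spindle genes were called higher in at least 1 set, 6 of them in all 4, and their median was 0.22. HMMR rose by 0.36, 0.45, 0.22 and 0.20 on the log2 scale (SE 0.059) and the kinetochore protein CENPF by 0.28, 0.33, 0.40 and 0.24 (SE 0.067). CENPF was at 239, 247, 232 and 241 CPM in the 6-week controls and 324, 318, 256 and 263 in the 12-week controls. KIF11 rose by 0.25, 0.26, 0.31 and 0.18 (SE 0.041, edgeR adjusted p = 9.66e-06, 3.48e-06, 1.99e-07 and 0.00104), so that the change with time in the controls was larger than its log2 fold change of 0.11 with 0.1 µM PFOS at 6 weeks. DLGAP5, which stabilizes spindle fibres near the chromosomes, rose by 0.29, 0.40, 0.29 and 0.15. KIF23 was called only at 0.01 and 0.1 µM, where it rose by 0.12 and 0.15.

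Of 10 origin licensing and helicase genes, 8 were called higher in at least 1 set and 4 in all 4, with a median of 0.15. MCM6 was at 171, 175, 152 and 165 CPM in the 6-week controls and at 212, 216, 182 and 176 in the 12-week controls. With 1 µM it was at 165, 159.8, 166 and 168, and then at 172, 170.4, 199 and 202. The 2 times did not overlap in either set, but vials 3 and 4 of the 12-week controls and vials 1 and 2 of the 1 µM cultures were near the 6-week level. The log2 fold changes were 0.25, 0.40, 0.36 and 0.17 (SE 0.055, edgeR adjusted p = 0.000598, 4.08e-07, 2.57e-06 and 0.0155). GINS2 rose by 0.21, 0.49, 0.37 and 0.30 (SE 0.066), from 40.7, 39.9, 43.6 and 39.9 CPM to 53.3, 54.1, 64.2 and 59.4 CPM at 0.01 µM, where the 2 times did not overlap. GINS1 was called only in the control and at 0.1 µM, where it rose by 0.21 and 0.14. The helicase subunits did not move as 1 block. MCM2 and MCM7 rose in all 4 sets, MCM5 in the 3 PFOS sets (at 1 µM not with the vial as replicate block, edgeR adjusted p = 0.0521), MCM4 at 0.01 µM, and MCM3 was at -0.02, -0.04, 0.06 and 0.01. CDC6, which loads the helicase at origins, was at -0.12, -0.10, -0.10 and -0.05 and was called in 0 sets, whereas its partner CDT1 rose in the control (0.19) and at 1 µM (0.15). Differences between the subunits were not tested.

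All 5 mitotic kinases and passenger genes were called higher in at least 1 set, with a median of 0.10. PLK1, the kinase that drives centrosome maturation and mitotic entry, rose by 0.32 at 0.01 µM, 0.35 at 0.1 µM and 0.21 at 1 µM, and in the control it was at 0.13 (edgeR adjusted p = 0.174). CDCA8, which encodes borealin of the passenger complex, rose by 0.14, 0.24, 0.31 and 0.13. AURKA, the centrosomal Aurora kinase, rose by 0.11 at 0.01 and at 0.1 µM. Of 3 transcription factors, only MYBL2 at 1 µM was called (0.12, edgeR adjusted p = 0.0451, and 0.0502 with the vial as replicate block), and the median of the 3 was 0.0039. E2F1 was at -0.10, 0.01, 0.04 and -0.04 and FOXM1 at -0.08, -0.05, 0.07 and 0.08. In chromatin and repair, TOP2A rose in 3 sets (0.22, 0.24 and 0.19 in the control, at 0.01 and at 0.1 µM), MKI67 rose at 0.1 µM (0.21) and 1 µM (0.17), and BRCA1 was between -0.01 and 0.07.

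Cyclins and nucleotide supply genes held both directions. CCNB2 rose in all 4 sets (0.24, 0.25, 0.24 and 0.11), CCNB1 and cyclin A2 (CCNA2) at 0.01 and 0.1 µM, and CDK1 in the control and at 0.01 µM. CDK2 fell by 0.15 in the control, by 0.11 at 0.01 µM and by 0.18 at 0.1 µM on the log2 scale (SE 0.038, edgeR adjusted p = 0.00204, 0.0149 and 0.000359). In the controls it was at 107, 109, 107 and 109 CPM and then at 90.1, 97.5, 101 and 99.6, with no overlap. CCNE1 was at 5.09, 5.66, 5.34 and 4.53 CPM in the 6-week controls and at 3.66, 3.75, 4.59 and 5.08 in the 12-week controls, which overlapped. It fell by 0.46, 0.38 and 0.37 at 0.01, 0.1 and 1 µM (SE 0.13, edgeR adjusted p = 0.0059, 0.0187 and 0.0315), and in the control it was at -0.27 (edgeR adjusted p = 0.102). CCNE2 fell at 0.1 µM, by 0.39 (SE 0.11, edgeR adjusted p = 0.00633). RRM2 fell by 0.31 at 0.01 µM and by 0.32 at 0.1 µM (SE 0.066, edgeR adjusted p = 0.000362 and 0.000207). At 0.1 µM it was at 527, 514, 512 and 529 CPM and then at 424, 433, 404 and 402. In the 12-week controls RRM2 was at 412, 408, 525 and 519 CPM, and at 1 µM at 485, 537, 431 and 408. Against RRM2, PCNA rose in all 4 sets, by 0.23, 0.29, 0.16 and 0.14, and TYMS in the control, at 0.1 and at 1 µM, by 0.13, 0.12 and 0.21 (at 0.1 µM not with the vial as replicate block, edgeR adjusted p = 0.0502).

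**Figure D3:**
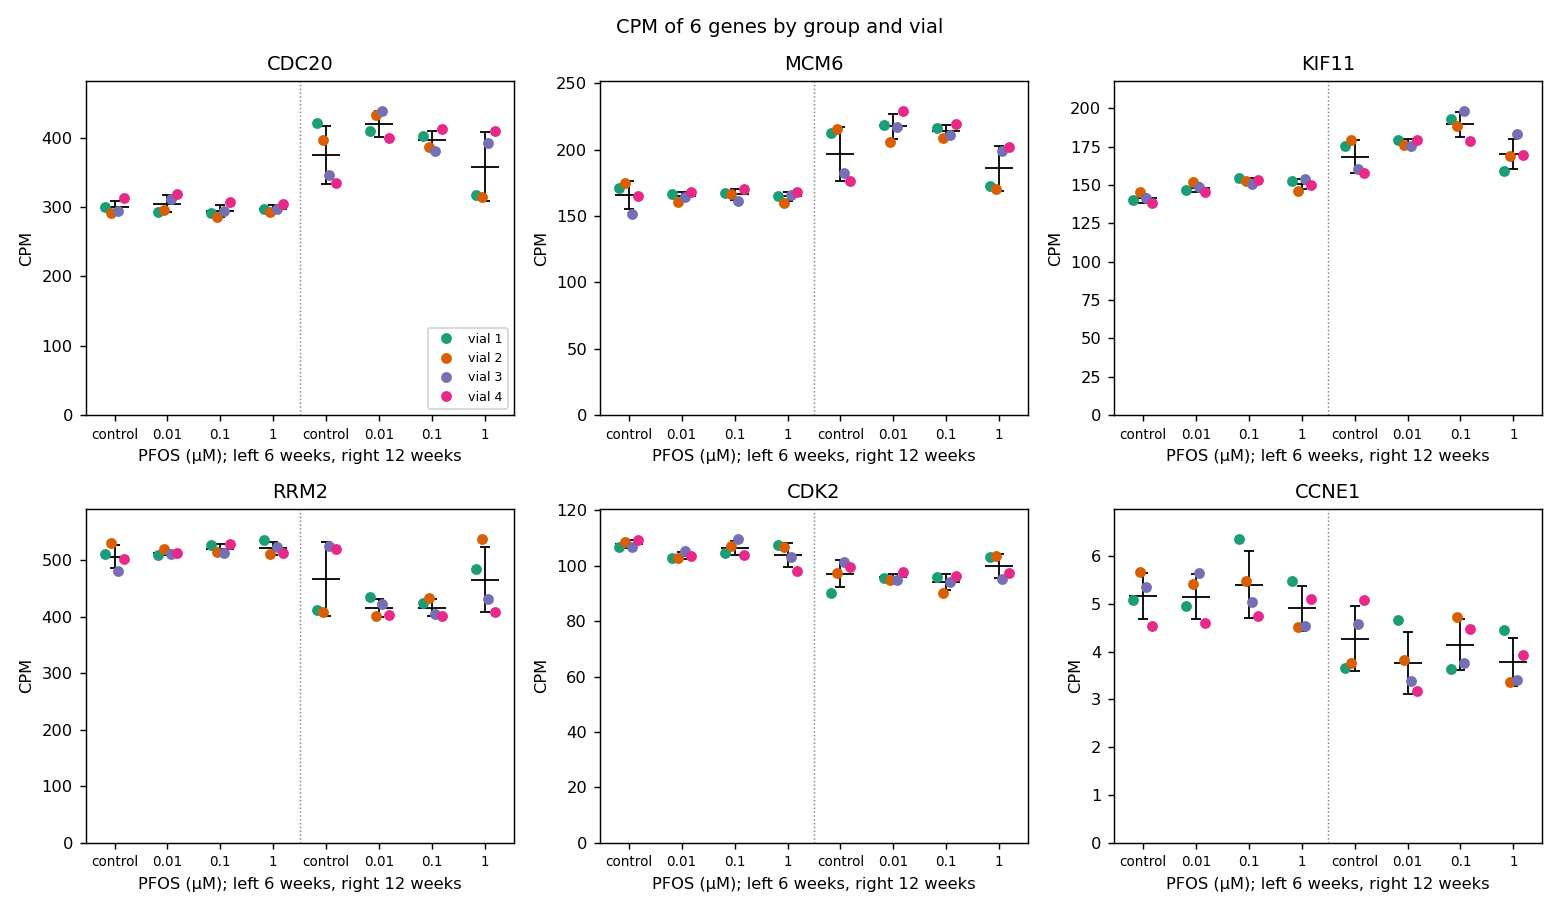
CPM (vertical axes, starting at 0) of CDC20, MCM6, KIF11, RRM2, CDK2 and CCNE1 by group (horizontal axes, PFOS in µM, 6 weeks on the left and 12 weeks on the right), with a coloured point for each vial and the mean and SD of 4 libraries in black. CDC20, MCM6 and KIF11 lie higher at 12 weeks, RRM2, CDK2 and CCNE1 tend to lie lower, and the 12-week controls and 1 µM cultures of CDC20, MCM6 and RRM2 each hold a pair of high and a pair of low libraries.

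Summed over the 49 genes, expression was 9668 to 10165 CPM in all 16 libraries at 6 weeks and the groups were close, at 9811 ± 117 in the control, 9955 ± 175 at 0.01 µM, 9825 ± 89.1 at 0.1 µM and 9761 ± 66.9 CPM at 1 µM (SD, n = 4). At 12 weeks it was 10696 ± 487 in the control, 11237 ± 203 at 0.01 µM, 11023 ± 65.4 at 0.1 µM and 10502 ± 495 CPM at 1 µM (SD, n = 4). The controls of vials 1 to 4 were at 11052, 11177, 10255 and 10298 CPM, and the 1 µM cultures at 9981, 10178, 10963 and 10885. Vials 1 and 2 were thus the high ones in the control and the low ones at 1 µM, whereas 0.01 µM (11060.5, 11065, 11381 and 11443) and 0.1 µM (11098, 10964, 10973 and 11057) showed no such gap. The median deviation of the 49 genes from their group mean was 0.050, 0.067, -0.068 and -0.045 on the log2 scale in the controls and -0.072, -0.050, 0.064 and 0.047 at 1 µM. The SD between vials was larger at 12 than at 6 weeks for 42 of the 49 genes in the control (60.4% of all genes) and for 44 at 1 µM (59.0%), compared with 37 at 0.01 µM (69.7%) and 30 at 0.1 µM (58.9%). Spindle checkpoint genes summed to 1109, 1092, 971 and 950 CPM in the 12-week controls and 898, 918, 1056 and 1048 at 1 µM. This spread enters every 12-week comparison of both groups, and its part in them was not tested. The group of each library was taken from the labels as given, and whether libraries of these 2 groups were exchanged was not tested, which bears on every 12-week value of the control and of 1 µM.

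**Figure D4:**
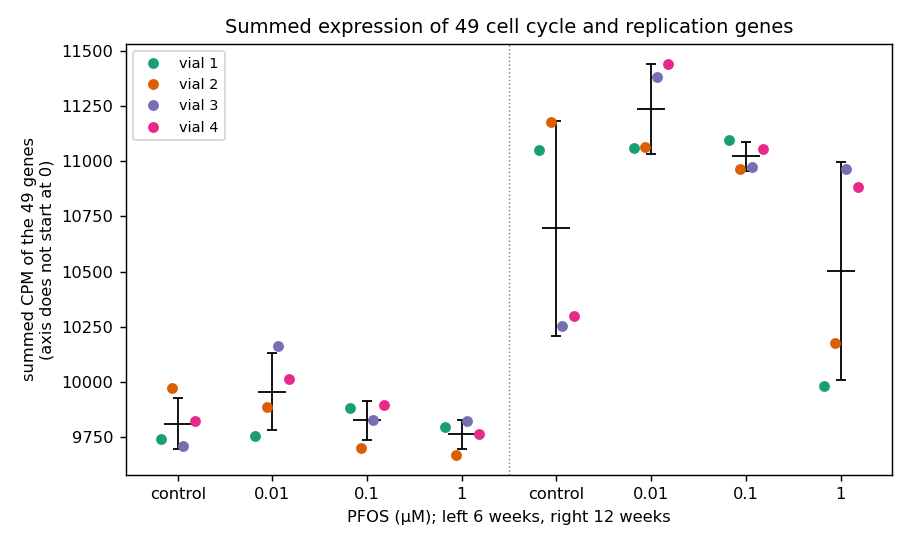
Summed CPM of the 49 genes (vertical axis, which does not start at 0) in each library (points, coloured by vial) by PFOS concentration in µM (horizontal axis), 6 weeks on the left and 12 weeks on the right. Black marks are the mean and SD of 4 libraries. The 6-week libraries lie between 9668 and 10165 CPM, and at 12 weeks the control group holds a pair at 10255 and 10298 and a pair at 11052 and 11177, and the 1 µM group a pair at 9981 and 10178 and a pair at 10885 and 10963.

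Whether the PFOS effect differed between 6 and 12 weeks was tested as an interaction on all 32 libraries. Of the 49 genes 0 were called at 0.01 µM (0% of all genes), at 0.1 µM (0.208%) and at 1 µM (0.123%), while 6, 7 and 4 had an unadjusted p under 0.05 (7.48%, 14.5% and 12.1% of all genes). The 147 values lay between -0.44 and 0.29. The lowest adjusted p was that of CCNE2 at 0.1 µM, with a difference of log2 fold changes of -0.44 (SE 0.16, edgeR adjusted p = 0.184). GINS2 at 0.01 µM was at 0.29 (SE 0.093, edgeR adjusted p = 0.556), and FOXM1 at 1 µM at 0.16 (edgeR adjusted p = 0.363). DESeq2 also called 0 of the 49 in all 3.

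Other genes of these pathways were taken as 48 further replication genes, 56 further mitosis genes and 16 p53 target genes. With PFOS at 6 weeks, 4 of these 120 were called, all at 0.1 µM (where 4.24% of all genes were called) and all higher. Of these, 3 were CDC7, the kinase that fires origins (log2 fold change 0.21, SE 0.051, edgeR adjusted p = 0.0232), the spindle motor KIF15, which can stand in for KIF11 (0.17, edgeR adjusted p = 0.0336), and MDM2, the ubiquitin ligase of p53 (0.15, edgeR adjusted p = 0.0337). CDC7 was at 27.6, 27.5, 26.2 and 23.8 CPM in the controls and at 30.2, 30.9, 29.3 and 31.4 with 0.1 µM, with no overlap. At 12 weeks 1 was called, at 0.1 µM (1.07% of all genes): CDKN1A, the p53 target that encodes the CDK inhibitor p21. It was at 185, 191, 240.0 and 220.5 CPM in the controls and at 154, 142, 148 and 123 with 0.1 µM PFOS, so the groups did not overlap, and it fell by 0.56 on the log2 scale (SE 0.11, edgeR adjusted p = 0.0288). With 1 µM it was at 191, 202, 147 and 150.1 CPM. In both groups the vials with more CDKN1A were those with the lower summed expression of the 49 genes, which is a description of 8 libraries. At 0.01 µM CDKN1A was at 185, 159, 185 and 156 CPM, so vials 1 and 3 had more, whereas vials 1 and 2 had the lower sums. At 0.1 µM vial 1 was highest in both CDKN1A and the sum. In the interaction, BTG2, an antiproliferative p53 target, was called at 0.1 µM, as were 0.208% of all genes (-0.86, SE 0.18, edgeR adjusted p = 0.0395), and 0 of the 120 were called at the other concentrations. How the calls of these 120 genes hold in alternative fits is not reported here.

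Between 6 and 12 weeks, the further mitosis genes were called higher for 30, 40, 40 and 20 of 56 and lower for 3 in each set, in the order control, 0.01, 0.1 and 1 µM. Of all genes, 17.3%, 21.4%, 19.7% and 14.2% were called higher and 19.3%, 21.3%, 20.6% and 15.9% lower in that order, beside which the counts of all 3 lists stand. KIF15 rose by 0.48, 0.56, 0.40 and 0.33 on the log2 scale, and HJURP, the chaperone that deposits CENPA at centromeres, fell by 0.38, 0.35, 0.32 and 0.27. The further replication genes were called higher for 18, 23, 14 and 13 of 48 and lower for 5, 5, 5 and 3. In the control the origin kinase subunit DBF4 rose by 0.31, and at 1 µM the polymerase delta catalytic subunit POLD1 rose by 0.22, while ASF1B, a histone chaperone, fell in all 4 sets, by 0.15, 0.18, 0.22 and 0.15. Of 16 p53 targets, 8, 5, 5 and 6 were called higher and 1, 2, 5 and 3 lower. TP53I3 fell in all 4 sets, by 0.60, 0.67, 0.65 and 0.44, and PHLDA3 rose in all 4, by 0.43, 0.29, 0.33 and 0.38.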

How the data were processed

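RNA was measured in 32 libraries, 4 vials in each of 8 groups, which were assigned from the sample labels. From mRNA selected by its poly(A) tail, the authors made strand-specific libraries for DNBSEQ sequencing, and the deposited expected counts per gene come from RSEM without normalization. TPM values, scaled by the authors for transcript length and library size, were also deposited. The submitters' processing notes name the build GRCh38.p14 and HISAT2 2.0.4, Bowtie2 2.2.5 and RSEM 1.2.8. Deposited FPKM and normalized counts were not used, and 0 columns were left unmapped.

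Expected counts were rounded to whole numbers and tested with edgeR 4.0.16 (limma 3.58.1, R 4.3.3): filterByExpr, TMM, robust quasi-likelihood fit, two-sided, Benjamini-Hochberg over all genes tested. PFOS comparisons used the 16 libraries of a time, and comparisons of times and interactions all 32. TPM served for levels between genes and TMM-scaled CPM of all 32 libraries for values by library. Precision is set by 4 libraries a group and total counts of 17907057 to 18553350. On simulated counts, 200 genes were changed 2-fold, and libraries of the same vial were drawn without any link. The fit recovered 185 with 6 false calls for 0.1 µM at 6 weeks (12788 genes) and 180 with 4 for 0.1 µM at 12 weeks (12690). It recovered 178 with 13 for the control between times (12915). All changes of the 49 genes were below 2-fold, so recovery of changes of their size was not tested. The alternatives were RLE size factors, no filter, the vial as replicate block, DESeq2 1.42.0, leaving out each vial, other sets of libraries and, added after seeing the data, leaving out the control library with most liver transcripts. Promoter windows came from a RefSeq table.

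The labels state that the flask of each vial was divided into the 4 groups, so the vial is shared between groups. Deviations from the group means correlated between libraries of the same vial with a mean r of 0.055 to 0.124 between groups at 6 weeks, -0.161 (control against 1 µM, negative in all 4 vials at -0.106, -0.176, -0.185 and -0.175) to 0.154 at 12 weeks and -0.0473 to 0.133 across times. Of 48 pairs of replicates 0 were identical (chi-square per degree of freedom 2.30 to 16.2). The p-values measure the spread between vials of 1 line.

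The genes, lists, tests and alternatives were chosen with earlier results of these data known. Named are all members called in any comparison, the 2 with the highest TPM in each role, the 3 with the lowest p in each PFOS comparison, at most 5 called genes of each other list per comparison, and markers. Genes given for other reasons, such as groups that did not overlap, the value farthest from 0 or no call in any set, were chosen after their values were seen. Values of some genes of the other lists are not reported here.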

Additional observations from a re-analysis of the deposited data

Results flagged for a closer look

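Within groups of 4 libraries, 3 summed values lay far from the other 3 by Dixon's test at 95%, all after 6 weeks. The cell cycle transcription factors E2F1, FOXM1 and MYBL2 summed to 772 CPM in the lowest library at 0.1 µM, where the next was at 797 CPM (gap to range ratio 0.890), and to 771 CPM in the lowest library at 1 µM, where the next was at 792 CPM (ratio 0.902). The 6 spindle checkpoint and anaphase genes summed to 863 CPM in the lowest library at 1 µM, where the next was at 880.2 CPM (ratio 0.917). Chance alone gives such a gap in about 1 in 20 groups. The sums of the 8 roles and of all 49 genes were each checked in the 8 groups, so a few such gaps arise by chance alone.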

How the results depend on the processing

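With PFOS at 0.1 µM after 6 weeks, the 1 call (KIF11) became 0 with no filter on low counts, with only the 8 libraries of the 2 groups and with all 32 libraries in 1 fit, and leaving out 1 vial gave 0 to 1 calls, the 1 being TOP2A without vial 2. At 0.1 µM after 12 weeks, 0 calls became 2 with DESeq2 (KIF11 and MCM3) and 2 with all 32 libraries (KIF11 and RRM1). Between the times, leaving out 1 vial gave 18 to 29 calls in the controls and 6 to 23 at 1 µM, where it was lowest without vial 3. Without the 12-week control of vial 3 alone, chosen after seeing the data, there were 32 calls in the controls. Leaving out 1 vial leaves 3 against 3 libraries, for which groups separate more easily, and the number of genes without overlap was then 4 to 11 at 0.01 µM, 7 to 11 at 0.1 µM and 2 to 9 at 1 µM after 6 weeks, 0 to 7, 8 to 13 and 2 to 9 after 12 weeks, and 19 to 28 between the times at 1 µM. The share of all genes was then 8.44 to 16.9%, 19.6 to 25.7% and 12.8 to 22.4% after 6 weeks, 6.22 to 13%, 13.7 to 24.2% and 13.7 to 17.6% after 12 weeks and 38 to 42.6% between the times at 1 µM. With the vial as replicate block, 1 gene was called at 0.1 µM after 6 weeks and 0 in the other 5 PFOS comparisons, and between the times 28 in the controls, 36 at 0.01 µM, 36 at 0.1 µM and 22 at 1 µM, and the block removed 3 calls of single genes. Over all alternatives 0 calls of single genes changed direction and 124 were lost, 54 of them between the times at 1 µM. Of the counts and medians, 35 moved beyond the margin set for them. The median of the 49 genes at 1 µM after 12 weeks changed sign when 1 vial was left out. With 4 libraries a group, the standard errors limit what could be seen of changes near those found here.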
